A study of Mus musculus with 6 samples.

Results

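The genes described here encode the clustered core and linker histones of mouse embryonic stem cells, measured with and without knockdown of Trim71. They were taken as every probe set whose annotation held at least 1 symbol of the linker (H1f), H2A (H2ac), H2B (H2bc), H3 (H3c) or H4 (H4c) families, which gave 52 of 34760 probe sets. Of these, 30 carried 1 gene symbol and 22 carried several, from 2 to 19, and the latter are reported apart because a signal there belongs to no single gene. The rule used names alone and no measured value. RNA was hybridised to 6 single-colour Affymetrix arrays, 3 labelled as wild-type embryonic stem cells and 3 as embryonic stem cells with Trim71 knockdown. The knockdown cells had been transfected with a pool of 3 siRNAs against Trim71 and were collected 72 h later. The protocol also names a non-targeting siRNA, but the labels of the control arrays do not say whether their cells received it, and they name neither the cell line nor whether replicates are separate cultures. The spread behind each p-value is thus that between these arrays and may be technical.

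Histones wrap DNA into nucleosomes, each built on pairs of H2A, H2B, H3 and H4, while linker histone H1 binds where the DNA enters and leaves. Most of their genes lie in clusters, are transcribed during DNA replication, and give messages that end in a stem-loop bound by SLBP in place of a poly(A) tail. Cells that divide fast, such as embryonic stem cells, need large amounts of these messages in S phase. Trim71, also known as Lin41, binds RNA, carries a RING domain typical of ubiquitin ligases and is made in early embryos and stem cells. RefSeq listed 67 protein-coding genes matching the rule, 53 of them on chromosome 13, 10 on chromosome 3, 2 on chromosome 6 and 2 on chromosome 15. Of the 67, 30 had a probe set of their own, 36 were named only on probe sets shared with other genes, and the linker gene H1f0 was not named on any.

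To show how the classes differ at their start sites, 1 promoter per class is printed as the 250 bases before the RefSeq start (build GRCm38.p6, gene strand, 5′ to 3′). H3c4 and H1f2 stand for members with large changes, H2ac1 for the H2A gene with the largest statistic, and H2bc3 and H4c3 for the lowest changes among the H2B and H4 genes. Capitals mark, on either strand, the octamer ATTTGCAT, the TATA element TATAAA, the CCAAT element and the letters GGTCC.
H3c4 (chr13:23575513-23575762, plus strand): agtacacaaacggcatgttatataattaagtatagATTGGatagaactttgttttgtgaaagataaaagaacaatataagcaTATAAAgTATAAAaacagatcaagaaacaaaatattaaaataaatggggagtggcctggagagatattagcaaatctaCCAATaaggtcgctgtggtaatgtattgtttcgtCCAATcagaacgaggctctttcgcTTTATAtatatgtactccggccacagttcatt
H1f2 (chr13:23738557-23738806, plus strand): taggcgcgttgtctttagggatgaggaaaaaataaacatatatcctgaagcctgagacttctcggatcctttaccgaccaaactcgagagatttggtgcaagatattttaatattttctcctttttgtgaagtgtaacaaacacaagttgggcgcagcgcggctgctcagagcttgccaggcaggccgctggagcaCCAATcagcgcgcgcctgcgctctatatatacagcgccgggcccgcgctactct
H2ac1 (chr13:23934187-23934436, plus strand): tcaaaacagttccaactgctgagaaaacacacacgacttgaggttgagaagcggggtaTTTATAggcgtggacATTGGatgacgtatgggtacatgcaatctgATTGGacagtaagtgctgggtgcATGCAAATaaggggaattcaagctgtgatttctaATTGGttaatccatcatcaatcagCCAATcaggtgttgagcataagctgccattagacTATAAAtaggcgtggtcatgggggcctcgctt
H2bc3 (chr13:23746484-23746733, plus strand): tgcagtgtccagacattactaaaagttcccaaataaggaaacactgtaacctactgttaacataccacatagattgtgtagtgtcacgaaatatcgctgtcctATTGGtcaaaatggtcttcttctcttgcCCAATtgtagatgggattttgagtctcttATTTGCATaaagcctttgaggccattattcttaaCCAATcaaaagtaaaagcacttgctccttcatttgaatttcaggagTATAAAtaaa
H4c3 (chr13:23698459-23698708, minus strand): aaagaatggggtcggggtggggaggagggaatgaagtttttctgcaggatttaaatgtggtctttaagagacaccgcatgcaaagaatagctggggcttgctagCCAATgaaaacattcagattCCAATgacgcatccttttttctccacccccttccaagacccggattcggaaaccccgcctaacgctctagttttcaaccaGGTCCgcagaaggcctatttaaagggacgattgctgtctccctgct

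The octamer, known as a site of POU factors such as Oct-1 in H2B promoters, was held by 7 of 15 H2B and 6 of 17 H2A promoters, by 0 of 10 linker, 0 of 10 H3 and 0 of 11 H4 promoters, and by 1.60% of all 32851 promoters of the same length. CCAAT stood in all 15 H2B and all 17 H2A promoters, in 7 of 10 linker, 8 of 10 H3 and 3 of 11 H4 promoters, and in 33.8% of all promoters. GGTCC stood in 10 of 11 H4 promoters against 39.8% of all promoters. TATAAA stood in 28 of the 63 histone promoters (44.4%) against 12.4% overall. H3c4 held TATAAA and CCAAT and neither other motif, and H1f2 held CCAAT alone of the 4. These are matches of letters and not measured binding. Of the 30 genes with their own probe set, 26 had a promoter in the table used, and H2bc4, H2bc21, H3c7 and H4c14 did not.

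The targeted transcript checked the labels. Trim71 read 10.48, 10.50 and 10.51 (log2 level) on the control arrays and 9.0, 8.95 and 8.98 on the knockdown arrays, a fall of 2.87-fold (limma adjusted p = 0.00103, smallest exact permutation p of 0.1). The 12 stem cell markers examined had mean log2 levels from 9.87 to 12.96 and the 12 markers of fibroblast feeder cells from 3.34 to 11.86. Over those feeder markers the array means were 6.79 to 6.88 in controls and 6.71 to 6.84 in knockdown arrays. Of the 12 feeder markers, 6 had log2 fold changes above 0 and 6 below, with a median of −0.003. Among them Acta2, a smooth muscle actin gene, fell by 0.70 on the log2 scale (limma adjusted p = 0.0361). The collagen gene Col1a1 had a log2 fold change of −0.02. Of the 12 stem cell markers, 10 had log2 fold changes above 0 (median 0.06), against 11156 of all 21640 probe sets with 1 symbol. For 6 of the markers the unadjusted limma p was under 0.05, against 13.9% of all probe sets. Of the 12, 1 was called, Tcl1, which fell by 0.46 (limma adjusted p = 0.0361), against 1.15% of all probe sets called. The array means of the stem cell markers were 11.42 to 11.44 in controls and 11.46 to 11.52 in knockdown arrays. The part of either marker list in the histone values was not tested. Array medians were 6.26 to 6.31. Knockdown array 3 had the highest upper quartile, 8.42 against 8.32 to 8.35, and the largest deviation from the mean of its group (root mean square over all probe sets), 0.174 against 0.116 to 0.151. RMA scales the arrays to each other, so a shift common to nearly all genes is not visible. In bulk RNA more cells in S phase and more histone message per cell cannot be told apart.

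Among the 52 histone probe sets, H2bc4 and H3c4 rose in the knockdown cells and 0 fell (limma, adjusted p under 0.05 over all 34760 probe sets). At an unadjusted p under 0.05 there were 13 of the 52, 12 of them upward, against 13.9% of all probe sets, of which 2909 of 4846 were upward. H2bc4 encodes an H2B protein and H3c4 an H3 protein, and both genes lie in the chromosome 13 cluster. Over all probe sets 1.15% were called, 0.765% higher and 0.386% lower, so the 2 histone calls are read against few calls in all. The median log2 fold change of the 52 was 0.04, against 0.01 for all probe sets. The split of all calls, 266 higher and 134 lower, was 467 and 382 after repeated quantile normalization and 218 and 200 with arrays centred on their medians. Fitted on 1 probe set for each of 19937 single-symbol genes, where 5.53% were called, 3.39% higher and 2.15% lower, 5 of the 30 histone genes were higher, with H1f2, H1f10 and H2ac1 beside H2bc4 and H3c4.

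**Figure D1:**
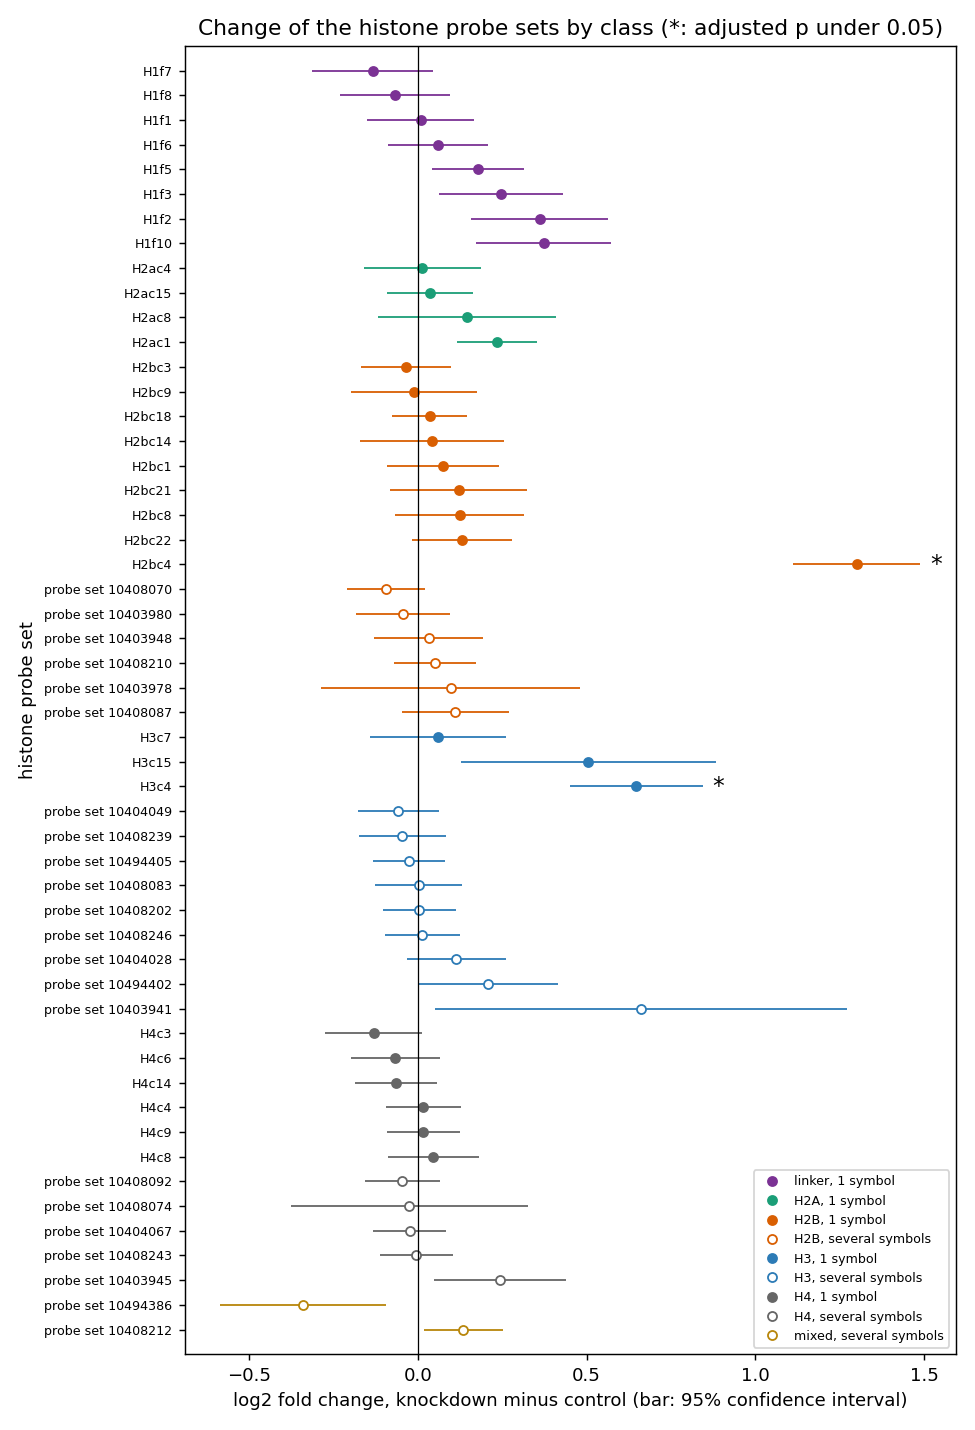
Log2 fold change (knockdown minus control) of the 52 histone probe sets with 95% confidence intervals from limma, ordered by class, with filled points for probe sets with 1 symbol and open points for several symbols. H2bc4 at 1.30 and H3c4 at 0.65 carry a star for an adjusted p under 0.05, and the H4 points lie near 0 apart from the probe set with 2 symbols at 0.24.

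H2bc4, known from older annotation as Hist1h2bc, had the largest change of any histone probe set. It read 8.46, 8.45 and 8.29 (log2 level) on control arrays 1 to 3 and 9.79, 9.60 and 9.71 on knockdown arrays 1 to 3. All 3 knockdown arrays lay above all 3 control arrays by more than 1 log2 unit. The group levels were 8.40 ± 0.099 (SD, n = 3) and 9.70 ± 0.098 (SD, n = 3), a 2.46-fold rise with a 95% confidence interval from 2.16 to 2.81. Its log2 fold change was 1.30 ± 0.077 SE (limma adjusted p = 0.0128, smallest exact permutation p of 0.1). Among the 4887 probe sets with mean log2 levels from 9 to 11, no other had a larger positive change. The log2 fold change stayed between 1.24 and 1.35 with any 1 array left out, but the call did not. Leaving out control arrays 1, 2 and 3 in turn gave H2bc4 limma adjusted p-values of 0.115, 0.124 and 0.0818, and leaving out knockdown arrays 1 and 2 gave 0.0731 and 0.0820. H2bc4 was still called when knockdown array 3 was left out (adjusted p = 0.0434).

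The other H2B genes had smaller changes. The other 8 single-symbol H2B probe sets had log2 fold changes from −0.03 for H2bc3 to 0.13 for H2bc22, with a median of 0.06. Of the 8, 0 passed the test, against 1.15% of all probe sets. H2bc22 read 6.0, 5.95 and 5.86 in controls and 6.01, 6.12 and 6.07 in knockdown arrays (log2 fold change 0.13, limma adjusted p = 0.419). H2bc3, which lies in the same part of the cluster, read 11.81, 11.75 and 11.72 in controls and 11.67, 11.72 and 11.79 in knockdown arrays, so its groups overlapped. Measured per array against the mean of the other 8, H2bc4 shifted by 1.24 on the log2 scale, from −0.14 ± 0.054 (SD, n = 3) to 1.10 ± 0.13 (SD, n = 3). H2bc4 was picked for its change, so this shift is a description and has no test. H2bc1, the testis H2B gene, had a log2 fold change of 0.07, H2bc8 one of 0.12 and H2bc21 on chromosome 3 one of 0.12. The 6 H2B probe sets with 14 or 15 symbols, 4 of them with mean log2 levels above 11, ranged from −0.09 to 0.11. H2bc4 is also listed on all 6 of these shared probe sets. Near-identical messages can share a probe set, and 0 of these 6 passed the test in limma. At an unadjusted p under 0.05 there were 0 of the 6, against 13.9% of all probe sets.

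**Figure D2:**
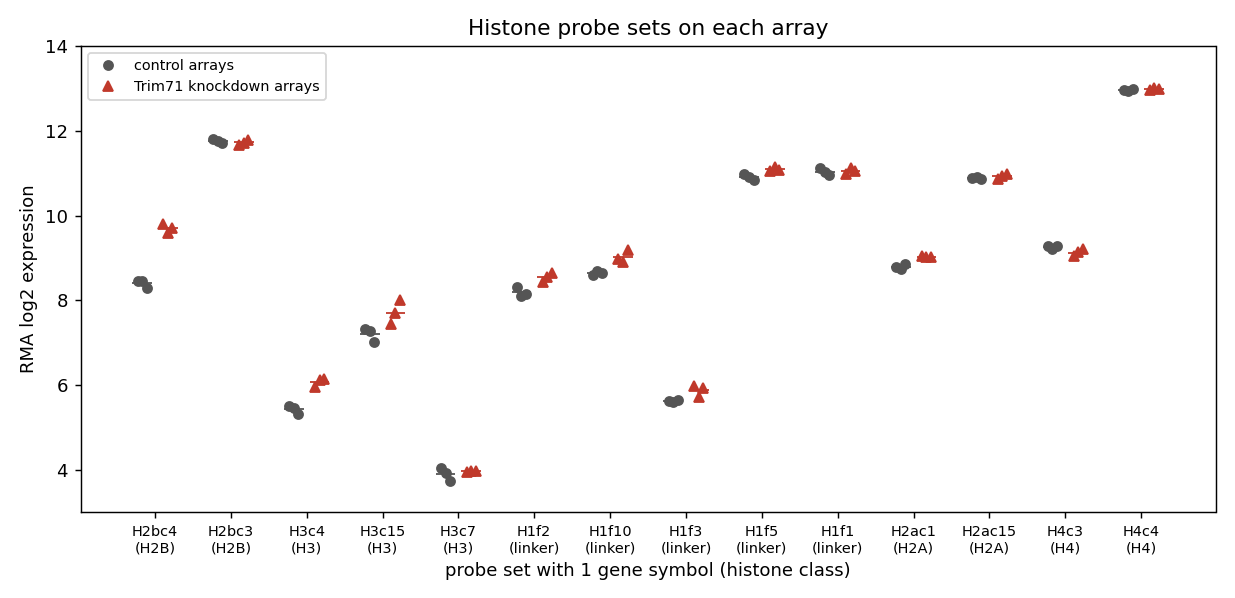
RMA log2 expression of 14 single-symbol histone probe sets on each of the 3 control arrays (circles) and 3 Trim71 knockdown arrays (triangles), with lines at group means. The knockdown arrays of H2bc4 (9.60 to 9.79) and H3c4 (5.96 to 6.15) lie above their control arrays, while H2bc3, H1f1 and H4c4 overlap.

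The H3 genes had the largest median change of the single-symbol classes, 0.51 over 3 probe sets. H3c4 read 5.51, 5.46 and 5.31 (log2 level) in controls and 5.96, 6.11 and 6.15 in knockdown arrays, without overlap. Its mean level over the 6 arrays, 5.75, lay below the array medians of 6.26 to 6.31. Its levels of 5.43 ± 0.10 (SD, n = 3) and 6.07 ± 0.10 (SD, n = 3) gave a 1.57-fold rise, with a 95% confidence interval from 1.37 to 1.79 (log2 fold change 0.65 ± 0.081 SE, limma adjusted p = 0.0348, exact permutation p = 0.1). With an array left out the log2 fold change ran from 0.59 to 0.71 and H3c4 was not called in any of the 6 fits. Leaving out control arrays 1, 2 and 3 in turn gave H3c4 limma adjusted p-values of 0.142, 0.167 and 0.124. Leaving out knockdown arrays 1, 2 and 3 in turn gave 0.0762, 0.149 and 0.0736. H3c4 is also named on probe set 10494386, which has 19 symbols and a log2 fold change of −0.34 (limma adjusted p = 0.206).

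H3c15, an H3 gene of the chromosome 3 cluster, read 7.33, 7.28 and 7.02 in controls and 7.45, 7.69 and 8.0 in knockdown arrays. The groups did not overlap, but the knockdown arrays spread widely, and the log2 fold change of 0.51 ± 0.16 SE did not pass (limma adjusted p = 0.218). H3c7 read between 3.74 and 4.04 in controls and between 3.96 and 3.98 in knockdown arrays, with a log2 fold change of 0.06. The 9 H3 probe sets with 12 symbols had a median of 0.005. Of these, 7 had mean log2 levels above 11 and changes from −0.06 to 0.11. The dimmest, probe set 10403941, had a log2 fold change of 0.66 ± 0.25 SE (limma adjusted p = 0.316). It read 5.29, 5.99 and 5.27 in controls and 6.27, 5.80 and 6.47 in knockdown arrays, so its groups overlapped. Probe set 10494402 was at 0.21 ± 0.085 SE (limma adjusted p = 0.352).

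The linker genes had a median log2 fold change of 0.12 over 8 probe sets, with 6 above 0 and 2 below. Of the 8, 0 were called, against 1.15% of all probe sets. At an unadjusted p under 0.05 in limma there were 4 of the 8, against 13.9% of all probe sets. The groups did not overlap for 5 of the 8, 4 upward and 1 downward, against 21.0% of all probe sets. Among the replication-dependent somatic genes, H1f2 read 8.31, 8.10 and 8.15 (log2 level) in controls and 8.43, 8.56 and 8.64 in knockdown arrays. Its log2 fold change was 0.36 ± 0.083 SE, a 1.28-fold difference (limma adjusted p = 0.116), and it passed in the fit of 1 probe set per gene (adjusted p = 0.0405). H1f3 read 5.63, 5.60 and 5.66 in controls and 5.97, 5.73 and 5.94 in knockdown arrays (0.25 ± 0.075 SE, limma adjusted p = 0.215). H1f5 read 10.97, 10.92 and 10.84 in controls and 11.06, 11.14 and 11.07 in knockdown arrays (0.18 ± 0.056 SE, limma adjusted p = 0.223). For H1f2, H1f3 and H1f5 every knockdown array lay above every control array. H1f1 was at 0.01, with an interval from −0.15 to 0.17, and its groups overlapped.

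Linker genes used outside DNA replication or in germ cells had log2 fold changes on both sides of 0, and those below 0 did not pass the test. H1f10, a replication-independent linker histone gene outside the clusters, read 8.60, 8.70 and 8.64 in controls and 8.98, 8.90 and 9.18 in knockdown arrays. Its log2 fold change of 0.37 ± 0.082 SE did not pass over all probe sets (limma adjusted p = 0.107) and passed in the fit of 1 probe set per gene (adjusted p = 0.0358). The testis genes H1f6 and H1f7 were at 0.06 and −0.13 and the oocyte gene H1f8 was at −0.07. For H1f6 and H1f8 the limma adjusted p was 0.747 and 0.741, at low mean log2 levels of 5.40 and 4.62. H1f7 read 6.66, 6.66 and 6.84 in controls and 6.65, 6.61 and 6.5 in knockdown arrays, which did not overlap (limma adjusted p = 0.506).

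The H2A genes with their own probe set were 4, all with log2 fold changes above 0, with a median of 0.09 that ran from 0.041 without knockdown array 3 and 0.057 without control array 3 to 0.13 without knockdown array 2. H2ac1, the testis H2A gene, read 8.78, 8.75 and 8.85 in controls and 9.04, 9.03 and 9.02 in knockdown arrays, without overlap. Its log2 fold change of 0.23 ± 0.049 SE had a limma adjusted p of 0.0940, and 0.0353 in the fit of 1 probe set per gene. H2bc1, its testis H2B partner, was at 0.07 and its groups overlapped. H2ac8 at 0.15, H2ac15 at 0.04 and H2ac4 at 0.01 had overlapping groups. A probe set with 19 symbols, 10494386, which named most H2A genes together with H2ax and H3c4, read 10.12, 10.02 and 9.87 in controls and 9.49, 9.73 and 9.77 in knockdown arrays. It was the lowest of the 52, at −0.34 ± 0.10 SE (limma adjusted p = 0.206), and its groups did not overlap. The other mixed probe set, 10408212, named H2bc6 and the linker gene H1f4 and was at 0.14 ± 0.048 SE (limma adjusted p = 0.284).

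The H4 genes had small changes in both directions. Their 6 single-symbol probe sets ranged from −0.13 to 0.05 (log2 fold change), with 3 above 0 and 3 below and a median of −0.02. At an unadjusted p under 0.05 in limma there were 0 of the 6, against 13.9% of all probe sets. H4c3 read 9.28, 9.20 and 9.27 in controls and 9.04, 9.13 and 9.20 in knockdown arrays, an interval of the log2 fold change from −0.27 to 0.01. H4c4, next to H3c4 in the cluster, read 12.95, 12.94 and 12.99 in controls and 12.95, 13 and 12.98 in knockdown arrays. Its 95% confidence interval, from −0.09 to 0.13, lay below the interval of H3c4. The mean log2 levels differed, at 12.97 for H4c4 and 5.75 for H3c4, and the part of level in this contrast was not tested. H4c6 and H4c14 were at −0.07 and −0.06, and H4c8 and H4c9 at 0.05 and 0.02. Of the 5 H4 probe sets with several symbols, the 4 with 11 symbols ranged from −0.05 to −0.0042 and the 1 with 2 symbols, H4c17 and H4c11, was at 0.24 ± 0.081 SE (limma adjusted p = 0.249).

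The size of the changes differed with the level of the probe set. The 20 histone probe sets with a mean log2 level of 11 or more had changes from −0.07 to 0.11, with a median absolute log2 fold change of 0.043, against 0.045 for all 1358 probe sets in that range. The 10 with a mean level from 9 to 11 held both the largest rise, H2bc4 at 1.30, and the lowest value, probe set 10494386 at −0.34, and had a median absolute change of 0.11 against 0.075 for all 4887 probe sets there. The 22 with a mean level under 9 had changes from −0.13 to 0.66, with 19 above 0, against 15320 of all 28515 probe sets there. Their median absolute change was 0.13, against 0.08 for those 28515. Probe sets with several symbols made up 14 of the 20 bright ones and 4 of the 22 dim ones. The part of shared symbols in the smaller changes was not tested.

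**Figure D3:**
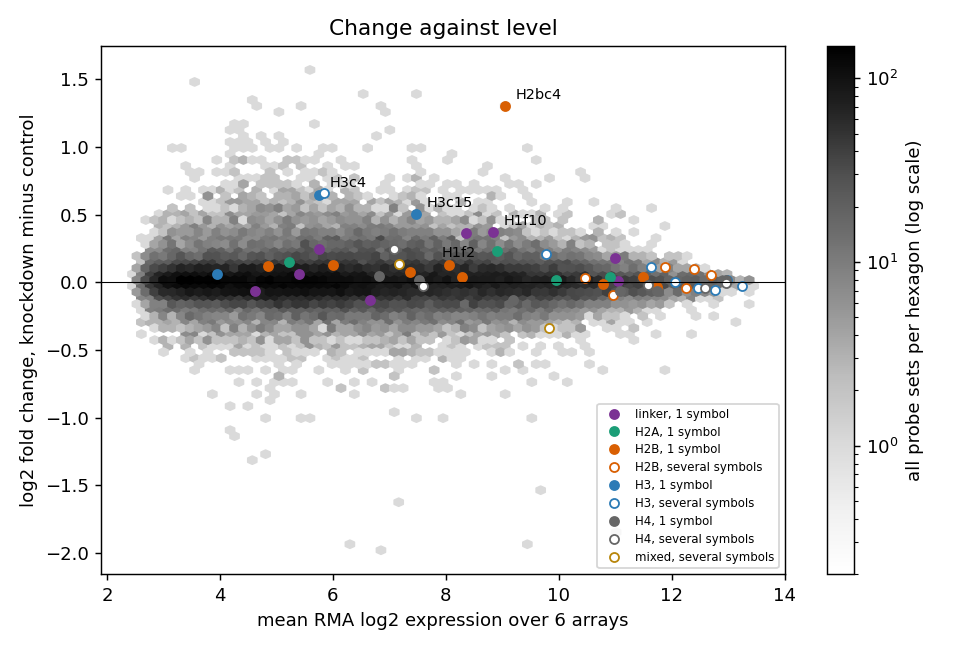
Log2 fold change (knockdown minus control) against mean RMA log2 expression over 6 arrays, with all 34760 probe sets as grey hexagons and the histone probe sets coloured by class. H2bc4, at a level of 9.05, has the largest rise among the 4887 probe sets from 9 to 11, while rises under 9 reach 1.57. The 20 histone probe sets at 11 or more lie between −0.07 and 0.11.

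A feature that the rule did not use separated a few members. For 3 of the 52 probe sets, H3c4, H3c15 and H1f2, the platform annotation held cDNA clone accessions and no RefSeq transcript accession. These 3 had log2 fold changes of 0.65, 0.51 and 0.36, and their groups did not overlap, against 21.0% of all probe sets. Of the other 49, with a median of 0.03, the groups also did not overlap for 11 upward and 6 downward. H2bc4 had a RefSeq transcript on its probe set, and its gene spans 8282 bases in the RefSeq table, against under 1000 bases for 24 of the 30 single-symbol genes. The other 5 long genes were H2bc22 at 14079 bases, H1f8 at 5312, H2bc21 at 2667, H1f7 at 1326 and H1f10 at 1062, with log2 fold changes of 0.13, −0.07, 0.12, −0.13 and 0.37. These features were picked after the values were seen and carry no test.

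The chromosome 13 run of histone genes also shows what lay beside the called members. The run held 54 histone genes, the 53 of the rule and H4bc24, whose symbol lies outside the rule and which had no probe set of its own. Of the 54, 23 had their own probe set, and H2bc4 and H3c4 were called among them, against 1.15% of all probe sets. H2bc4 lay in RefSeq order beside H2ac6, which had no probe set of its own, and the testis gene H1f6 at 0.06. H3c4 lay between H2ac7, which had no probe set of its own, and H4c4 at 0.02. H2bc6 and H1f4, between H4c4 and H2ac6, also had none. The probe set they share, 10408212, was at 0.14 (limma adjusted p = 0.284). The run also holds 14 other protein-coding genes apart from vomeronasal receptors, with 13 measured. Their log2 fold changes ran from −0.25 to 0.27, with a median of −0.08. Of the 13, 0 were called (limma), and with 1.15% of all probe sets called so few genes do not set them apart. At an unadjusted p under 0.05 in limma, Trim38 was above 0 and Slc17a2 and Slc17a4 below, against 13.9% of all probe sets. Hfe, an iron regulator gene between H4c3 and H1f2, was at −0.08. Trim38, a relative of Trim71 in the same run, was at 0.27 from a log2 level near 4, and the phosphate transporter gene Slc17a2 at −0.25. Of 28 measured vomeronasal receptor genes in the run, 0 were called, against the same 1.15%, and their median was 0.02.

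**Figure D4:**
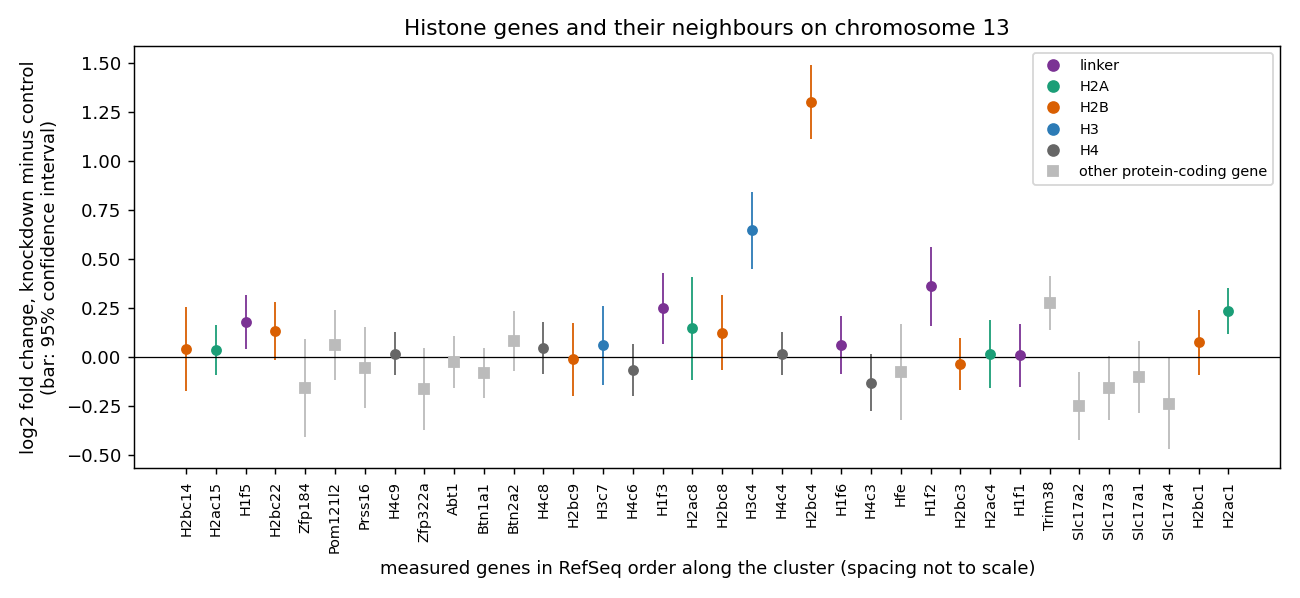
Log2 fold change with 95% confidence interval for the 23 histone genes (circles, coloured by class) and 13 other protein-coding genes (grey squares) measured in the chromosome 13 run, in RefSeq order without scale and without the vomeronasal receptors. H2bc4 at 1.30 and H3c4 at 0.65 lie above nearby measured genes such as H4c4 at 0.02 and H1f6 at 0.06. Genes without a probe set of their own, among them H2ac7, H2bc6, H1f4 and H2ac6, are not shown.

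Genes that supply or handle histones were compared in the same fit. Over 5 lists with 76 measured genes, 0 were called in either direction by limma, against 1.15% of all probe sets. At an unadjusted p under 0.05 there were 16 of the 76, against 13.9% of all probe sets. In the fit of 1 probe set per gene 7 were higher and 1 lower, against 3.39% and 2.15% of its genes. Of 19 genes for histone message processing and decay, 15 were above 0 (median log2 fold change 0.04), against 11156 of all 21640 probe sets with 1 symbol. The stem-loop binding protein gene Slbp read 9.33, 9.30 and 9.44 in controls and 9.31, 9.37 and 9.38 in knockdown arrays, and these overlapped. The helicase gene Upf1, needed for histone message decay, was at 0.15 (limma adjusted p = 0.193), the uridylyl transferase genes Tut7 and Tut4 at 0.25 and 0.15, and the 3′ exonuclease gene Eri1 at 0.14. Of 10 genes of histone gene transcription, Ccne2, a cyclin E that activates Cdk2, was at 0.44 ± 0.095 SE (limma adjusted p = 0.103, 0.0327 in the fit of 1 probe set per gene). The Cdk2 target and histone gene coactivator Npat was at 0.16, Ccne1 at −0.11, and Coil, which encodes the Cajal body protein coilin, at −0.15.

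Histone chaperones, which carry histones to DNA, had a median of −0.0004 over 18 genes, 9 above 0 and 9 below. Cabin1, a subunit of the HIRA complex, was at 0.28 ± 0.050 SE (limma adjusted p = 0.0647), Set at 0.30, Chaf1a, the large subunit of chromatin assembly factor 1, at 0.20, and Nap1l4 at −0.13. Of 8 replacement histone genes 7 were above 0 (median 0.06), against 11156 of all 21640 probe sets with 1 symbol. H2ax, the H2A variant phosphorylated at DNA breaks, read 10.68, 10.61 and 10.67 in controls and 10.90, 10.88 and 10.99 in knockdown arrays (0.27 ± 0.053 SE, limma adjusted p = 0.0838). The macroH2A genes, whose proteins carry a large extra domain, differed in sign, Macroh2a1 at 0.23 ± 0.047 SE (limma adjusted p = 0.0916) and Macroh2a2 at −0.38 ± 0.077 SE (limma adjusted p = 0.0891). Cenpa, the centromeric H3 variant, was at 0.09. Cabin1, Set, Chaf1a, H2ax, Macroh2a1 and Macroh2a2 passed in the fit of 1 probe set per gene, where 5.53% of all genes were called.

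Of 23 S phase genes, 8 were above 0 and 15 below, with a median log2 fold change of −0.01, beside the median of 0.05 of the 30 single-symbol histone probe sets. The uracil-DNA glycosylase gene Ung was at 0.31 ± 0.063 SE (limma adjusted p = 0.0905, 0.0290 in the fit of 1 probe set per gene) and the replication licensing gene Cdc6 at 0.21. Gins2, of the replicative helicase, and Orc1, of the origin recognition complex, were at −0.17 and −0.16, and neither passed. The S phase list mean lay between 10.22 and 10.23 on the control arrays and between 10.19 and 10.22 on the knockdown arrays. A part of cell cycle phase in the histone values was not tested.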

How the data were processed

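The deposited table holds log2 expression per probe set and array, which the authors made with RMA and the affy package, per the submitters' processing notes; for both, the version is not given in the sources used here. A whole-transcript kit amplified 100 ng of RNA, per the labels' protocols. GEO's platform annotation gave the names, with 21640 carrying 1 symbol, 1321 several and 11799 none, and promoters came from RefSeq (GRCm38.p6).

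The fit used lmFit and eBayes of limma 3.58.1 (R 4.3.3) on all 34760 probe sets, with group as the only term, Benjamini-Hochberg adjustment over all of them, no intensity filter and a call at an adjusted p under 0.05. Errors are standard errors of this fit unless marked SD. On simulated data with 200 of 34760 probe sets raised, 48% of 1.5-fold and 85% of 2-fold rises were recovered, and 5.67% of calls were unchanged probe sets. The simulated noise was independent and equal across arrays. The real arrays had weights from 0.35 to 1.95, so these shares need not hold for them. The 6 arrays limit the precision. For listed genes with several single-symbol probe sets, the brightest was used. Tables were made with Python 3.11.15 and pandas 2.3.3, figures with matplotlib 3.10.9.

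Members and lists were chosen with earlier results of these data known. Named are Trim71, called members, in each class up to 4 single-symbol probe sets with the largest absolute statistic and those with the highest and lowest level, the 4 leading probe sets with several symbols, germ cell and replication-independent linker genes, and up to 4 genes a list. Slbp, Hfe, Trim38, Slc17a2, Slc17a4, other neighbours, remaining members and marker genes were added after their values were seen. The alternatives were a replicate block, each array left out, bright probe sets only, a trended and robust prior, array weights, repeated quantile normalization, median centring, no moderation, 2 other sets of tested probe sets, an adjusted p under 0.01 and a 1.5-fold minimum.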

Additional observations from a re-analysis of the deposited data

How the results depend on the processing

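The number of calls depended strongly on the fit. The log2 fold changes of H2bc4 (1.24 to 1.35) and H3c4 (0.59 to 0.71) kept their direction under the alternatives that could change them. These were an array left out, array weights, repeated quantile normalization and median centring. The other alternatives cannot change the log2 fold change of a probe set, only its test or the probe sets tested. For all probe sets, the 266 higher and 134 lower became 930 and 536 among bright probe sets only, 766 and 413 with a trended and robust prior, 686 and 563 with array weights, 467 and 382 with repeated quantile normalization, 137 and 70 without moderation, 675 and 428 with 1 probe set per gene, 655 and 406 with named probe sets only, 1 and 2 at an adjusted p under 0.01, and 77 and 42 at 1.5-fold or more. With an array left out they were 0 to 43 and 1 to 50. The 2 of 52 histone probe sets called higher became 4 of 52 with the trended prior, 3 with array weights and 5 with named probe sets. Without moderation only H2bc4 was called (adjusted p = 0.0860 for H3c4). None was called at an adjusted p under 0.01, and 0 to 1 with an array left out. The bright fit tested 43 of the members and left out H3c4. It called 4 higher, H1f10, H1f2, H2ac1 and H2bc4. With 1 probe set per gene 5 of 30 were called higher, against 3.39% of all genes in that fit. These counts are to be read beside those for all probe sets, which also moved. Related genes called higher went from 0 to 7, 4, 4, 1, 7 and 6, and called lower from 0 to 1 in each, for bright probe sets, the trended prior, array weights, quantile normalization, 1 probe set per gene and named probe sets. With the replicate number as a block 0 probe sets were called higher, 0 lower and 0 of the histones. Deviations of same-numbered arrays correlated at −0.07, −0.05 and −0.22, and those of differently numbered arrays at −0.19 to 0.23. With 3 arrays per group these values cannot show whether the arrays were paired. The linker median of 0.12 was 0.18 among bright probe sets, 0.090 with arrays centred on their medians and 0.082 to 0.15 with an array left out. The H2A median was 0.028 with array weights. With centring, the medians were −0.054 for H4 probe sets with 1 symbol and −0.054 with several, and −0.025 for H3 with several, which was 0.005 before. The median of H2B with several symbols, 0.04, ran from −0.011 to 0.072 with an array left out, that of H4 with 1 symbol from −0.041 to −0.0050, and that of H3 with several symbols from −0.0025 to 0.017. The H2A median ran from 0.041 to 0.13. The median of H4 with several symbols ran from −0.026 to −0.010 with an array left out. The cause of these shifts was not tested.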
